A study of Mus musculus with 7 samples.

Results

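Expression of 10 genes that are typical of lung epithelium was examined in the prostates of Nkx3.1-/- mice, 7 alveolar genes (Sftpc, Sftpb, Sftpa1, Sftpd, Lamp3, Cldn18 and Ager) and 3 secretoglobin genes of club cells (Scgb1a1, Scgb3a1 and Scgb3a2). They are 10 of the 18938 genes measured. The genes were chosen by their values on 1 array, that of NAC replicate 3, and each is represented by the probe set that names it alone. The mice received 5 mM N-acetylcysteine (NAC), an antioxidant, in the drinking water, or vehicle (plain water), for 13 weeks from weaning at 3 weeks of age, and the tissue was taken at 16 weeks. All were homozygous for the deletion on a recombinant inbred B6/129 background, so the control mice carried the deletion as well. Affymetrix Mouse Gene 1.0 ST arrays were used, 1 mouse per array. There were 4 NAC arrays (replicates 1 to 4) and 3 vehicle arrays (replicates 1, 2 and 4), and littermates had been divided between the treatments. The extraction protocol names the anterior prostate and the tissue label the whole prostate. Values are on the log2 scale of RMA, on which a difference of 1 is a doubling, and in bulk tissue the number of cells of a type cannot be told apart from the RNA per cell.

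In the lung, alveolar type 2 cells make surfactant, a film of phospholipid and protein that lowers surface tension in the alveoli. SFTPB and SFTPC are its hydrophobic proteins, and SFTPA1 and SFTPD are collectins that bind microbes. Alveolar type 1 cells form the thin surface for gas exchange. In the airways, club cells secrete the small secretoglobins. Sftpb, Sftpa1 and Sftpd are made by both type 2 and club cells.

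The transcription factor NKX2-1 and the FOXA factors are known activators of surfactant and secretoglobin genes in lung epithelium. Upstream sequences are shown for the 3 members with a match to CTCAAG, a core of NKX2-1 sites, to place these letters in genes that were high together on 1 array. RefSeq promoters of GRCm38.p6 were found for 6 of the 10 members, and the 250 bases before each annotated start were searched on both strands for CTCAAG and for the FOXA forms TGTTTGC and TGTTTAC, which were picked after these windows had been seen. Capitals mark the matches. The Sftpb window is chr6:72304360-72304609, that of Sftpa1 chr14:41131538-41131787 and that of Scgb3a1 chr11:49663345-49663594, all on the plus strand and written 5′ to 3′.
Sftpb: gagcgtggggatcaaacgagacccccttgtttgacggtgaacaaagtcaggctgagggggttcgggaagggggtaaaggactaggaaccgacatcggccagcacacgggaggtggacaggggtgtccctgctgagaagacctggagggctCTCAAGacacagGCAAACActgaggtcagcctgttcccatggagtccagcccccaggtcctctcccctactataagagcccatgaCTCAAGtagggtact
Sftpa1: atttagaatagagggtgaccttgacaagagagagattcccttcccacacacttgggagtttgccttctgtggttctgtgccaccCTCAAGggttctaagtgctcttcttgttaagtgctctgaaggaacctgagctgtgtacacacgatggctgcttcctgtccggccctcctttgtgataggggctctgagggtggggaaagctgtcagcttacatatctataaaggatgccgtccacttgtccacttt
Scgb3a1: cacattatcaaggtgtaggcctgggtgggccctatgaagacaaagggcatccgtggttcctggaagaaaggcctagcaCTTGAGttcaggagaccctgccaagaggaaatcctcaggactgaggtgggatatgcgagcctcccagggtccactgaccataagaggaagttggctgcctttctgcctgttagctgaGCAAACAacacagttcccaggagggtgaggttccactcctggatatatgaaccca

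Sftpb held the NKX2-1 core at -100 and -15, counted from the annotated start, and the first FOXA form in reverse at -88. Sftpa1 held the core at -166. Scgb3a1 held it in reverse at -172, beside the first FOXA form in reverse at -55. The core was found in 3 of the 7 windows of the members and in 13.3% of 32851 windows of all genes, and the first FOXA form in 4 of the 7 and in 4.30% (Cldn18 has 2 annotated starts, each with a match). The second FOXA form was found in 1 of the 7, that of Lamp3, and in 3.17% of all windows. The matches did not overlap each other. A match describes letters and not a bound site. The level of Nkx2-1 itself was 6.60 on NAC replicate 3 and from 6.43 to 6.54 on the other 6 arrays.

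The arrays were alike in their overall values. The array medians were 7.12 to 7.16. Pearson's r between arrays, taken across genes, which are not independent replicates, was 0.995 or more. Prostate markers were high on all 7 arrays. The transglutaminase of the anterior prostate, Tgm4, was at 13.98 on NAC replicate 3 and from 13.96 to 14.02 on the others, and the luminal keratin Krt18 at 12.58 and from 12.56 to 12.60. Of 16 prostate genes listed, 14 were analysed here, and not all were this level. NAC replicate 3 minus the mean of the others ran from -0.87 (Spink1) to 0.37 (Krt5). NAC replicate 3 was the highest array for 1 of the 14 and the lowest for 1, Tmprss2, at 10.50 against 10.63 to 11.01. The mean of the 14 was 11.31 on NAC replicate 3 and from 11.32 to 11.38 on the others. At least 3 arrays held exactly the same value, to every digit deposited, in 7568 of the 18938 genes, among them 4 of the members, which limits what small differences can show.

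Sftpc, which encodes a surfactant protein made by type 2 cells alone, was at 10.51 on NAC replicate 3, at 5.25, 5.13 and 5.26 on NAC replicates 1, 2 and 4, and at 5.15, 5.25 and 5.25 on vehicle replicates 1, 2 and 4. The array of NAC replicate 3 thus stood 5.30 above the mean of the others, a 39.3-fold higher value, while the other 6 arrays spanned 0.13. Sftpb, needed for the surfactant film to spread, was at 8.24 on NAC replicate 3, at 6.53, 6.53 and 6.55 on the other NAC arrays and at 6.53, 6.48 and 6.38 with vehicle. The difference was 1.75 (3.35-fold), with a range of 0.17 among the other 6 arrays.

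NAC replicate 3 was also the highest array for the collectin genes. Sftpa1 was at 8.48 on NAC replicate 3, at 6.91, 6.86 and 6.92 on NAC replicates 1, 2 and 4, and at 6.92 on each of the 3 vehicle arrays. Sftpd was at 7.17 on NAC replicate 3, at 6.04, 6.10 and 6.14 on the other NAC arrays, and at 6.05, 6.10 and 5.96 with vehicle. NAC replicate 3 was above the mean of the others by 1.57 for Sftpa1 (2.98-fold) and by 1.10 for Sftpd (2.15-fold). In these 4 surfactant genes 1 array was high and the remaining NAC and vehicle arrays overlapped.

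Lamp3, a membrane protein of lamellar bodies, in which type 2 cells store surfactant, was at 5.50 on NAC replicate 3, at 4.28, 4.29 and 4.24 on the other NAC arrays, and at 4.36, 4.25 and 4.28 with vehicle. Cldn18, the tight junction protein claudin 18, which lung and stomach express as separate isoforms, was at 7.23 on NAC replicate 3, at 5.92, 5.86 and 5.92 on the other NAC arrays, and at 5.75, 5.95 and 5.87 with vehicle. Its difference of 1.36 (2.56-fold) was close to the 1.22 of Lamp3 (2.33-fold). For stomach and gut, a list of 9 other genes had a median difference of 0.01, and the stomach gene Gkn1 was at 6.30 on NAC replicate 3 and from 6.20 to 6.49 on the others.

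Ager encodes the receptor RAGE, which is abundant on type 1 cells. It was at 7.64 on NAC replicate 3, at 6.88, 6.77 and 6.88 on NAC replicates 1, 2 and 4, and at 6.88, 6.76 and 6.83 on vehicle replicates 1, 2 and 4. The difference of 0.81 (1.75-fold) was the smallest of the 7 alveolar genes. It was 14.1 times the SD of the other 6 arrays, of which 3 held the same value. As the gene was chosen by NAC replicate 3, this multiple tests nothing. Across the alveolar genes the median difference was 1.36, and the values ran from 0.81 to 5.30.

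Among the club cell genes, Scgb1a1, which encodes the main secretory protein of these cells, was at 9.29 on NAC replicate 3, at 3.66, 4.03 and 3.87 on the other NAC arrays, and at 3.64, 3.92 and 3.60 with vehicle. Its difference of 5.50 (45.2-fold) was the largest of the 18938 genes. Scgb3a1, a secretoglobin of the larger airways, was at 7.66 on NAC replicate 3, at 6.43, 6.52 and 6.64 on the other NAC arrays, and at 6.60, 6.32 and 6.39 with vehicle. NAC replicate 3 was 1.17 above the mean of the others (2.26-fold).

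Scgb3a2, a secretoglobin of bronchial club cells, did not share the pattern. It was at 4.66 on NAC replicate 3, at 4.60, 4.54 and 4.66 on NAC replicates 1, 2 and 4, and at 4.51, 4.60 and 4.60 with vehicle. NAC replicate 3 exceeded NAC replicate 4 by 0.01, and its difference from the mean of the others was 0.08, which is 1.59 times their SD. The 3 club cell genes thus had differences of 5.50, 1.17 and 0.08, a wider spread than among the alveolar genes.

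**Figure D1:**
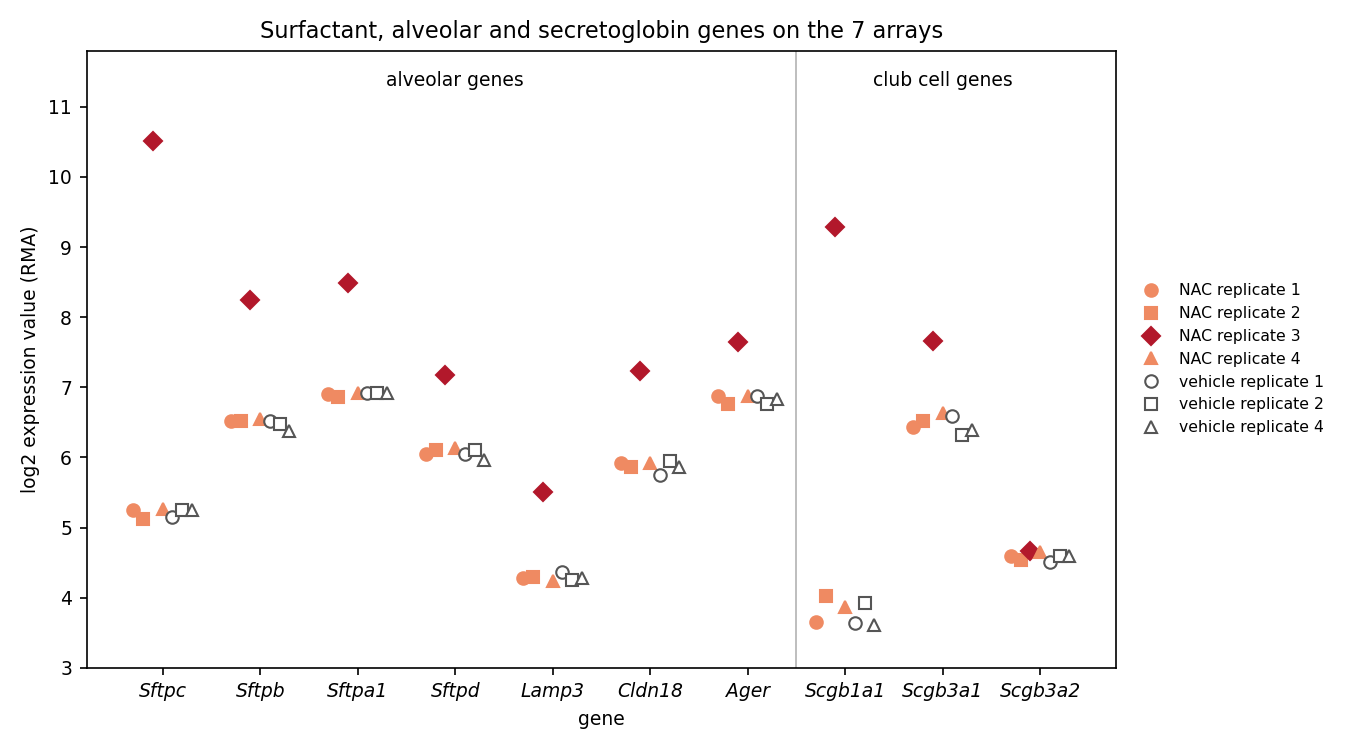
Log2 expression value (y axis) of the 7 alveolar and 3 club cell genes (x axis) on each of the 7 arrays, with NAC arrays filled and vehicle arrays open, and 1 symbol per array. NAC replicate 3 (dark diamond) is apart from the other arrays in 9 of the 10 genes, at 10.51 for Sftpc and 9.29 for Scgb1a1, and level with them at 4.66 for Scgb3a2.

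Set against all genes, NAC replicate 3 was the highest of the 7 arrays for 10 of the 10 members and for 14.8% of the 18938 genes. It was more than 0.5 above every other array for 9 of the 10 and for 0.354% of all genes, and more than 1 above for 8 of the 10 and for 0.121% (23 genes). Ager, at 0.76 above the next array, and Scgb3a2 were the members outside the last group. As the genes were chosen by this array, these counts describe it and test nothing. The median difference over all genes was -0.00. With NAC replicate 3 highest for every member, no other array could be. For each other array, the members' median difference from the mean of the remaining arrays lay between -0.28 and -0.21. Those remaining arrays include NAC replicate 3, whose high values set the negative sign.

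**Figure D2:**
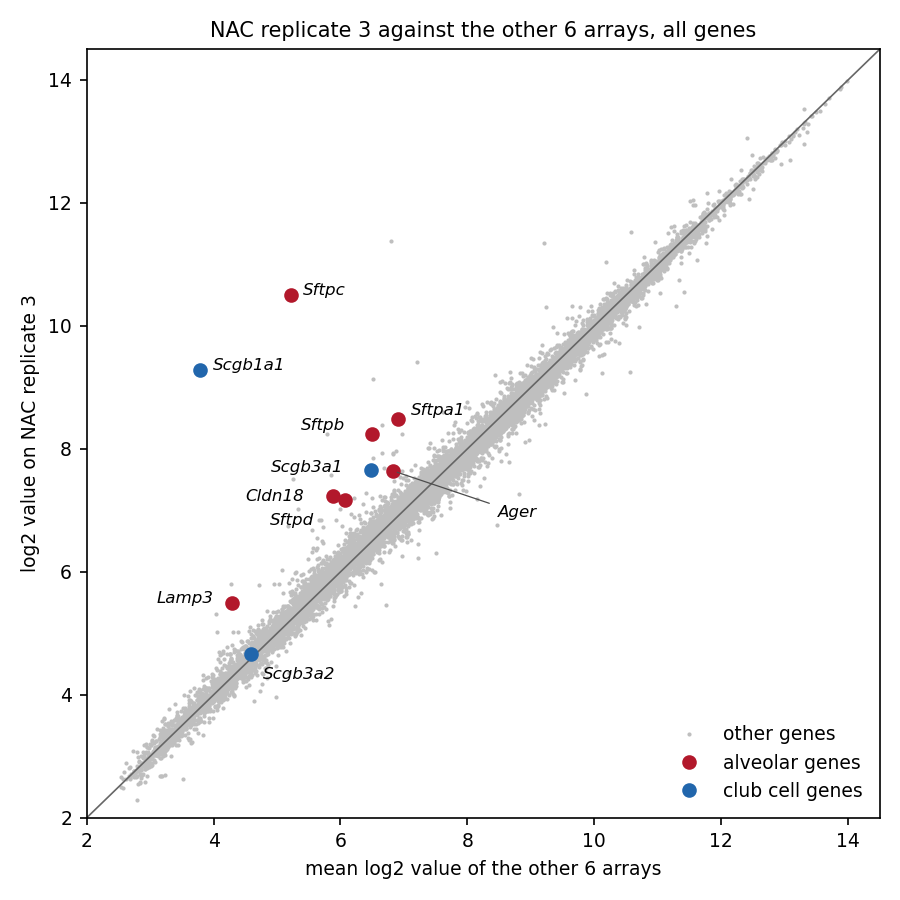
Log2 value on NAC replicate 3 (y axis) against the mean of the other 6 arrays (x axis) for 18938 genes, with the line of equal values, alveolar genes in red and club cell genes in blue. Sftpc and Scgb1a1 lie 5.30 and 5.50 above their means, and Scgb3a2 lies 0.08 above its mean.

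For the counts in the lists that follow, the shares over all genes were 14.8% highest on NAC replicate 3 and 0.354% by more than 0.5. Other genes of alveolar type 2 cells were followed as a list written from textbook knowledge. Of 18 genes, all measured, 11 were highest on NAC replicate 3 and 5 were more than 0.5 above every other array, and the median difference was 0.27. The 5 genes were Chil1, a chitinase-like protein of the airways, the phosphate transporter Slc34a2, the complement gene Hc, the lung chemokine Cxcl15 and the mucin Muc1. Chil1 was at 7.57 on NAC replicate 3 and from 5.71 to 5.92 on the others, and Slc34a2, which type 2 cells use to recover phosphate from surfactant, at 8.60 and from 7.37 to 7.73. The lipid transporter Abca3, at 10.26 and from 10.15 to 10.37, and the protease Ctsh, at 9.62 and from 9.55 to 9.78, were within the range of the other arrays, on which both had high values. Lyz2, a lysozyme of type 2 cells and macrophages, was highest on NAC replicate 1, at 11.02. It was at 10.13 on NAC replicate 3 and from 9.13 to 9.58 on the remaining arrays.

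Of 15 other type 1 genes, 6 were highest on NAC replicate 3 and 0 by more than 0.5, with a median difference of 0.08. The largest was that of Rtkn2, a type 1 marker, at 5.28 on NAC replicate 3 and from 4.86 to 4.91 on the others. The water channel Aqp5 was at 7.87 and from 7.52 to 7.66. Hopx, at 10.13 and from 10.02 to 10.18, and Pdpn, at 8.65 and from 8.29 to 9.10, did not stand out. Ager, with 0.81, thus had a larger difference than each of these 15 genes.

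Airway genes were mixed. Among 16 other club and secretory genes, 8 were highest on NAC replicate 3 and 4 by more than 0.5, with a median of 0.23. The antimicrobial lectin Reg3g was at 5.32 on NAC replicate 3 and from 3.84 to 4.40 on the others, and the carbonyl reductase Cbr2, abundant in club cells, at 11.04 and from 9.999 to 10.29. The plasma protein Hp, at 7.20 and from 5.63 to 6.46, and Sec14l3, at 6.50 and from 5.62 to 5.81, were the other two. Cyp2f2, a cytochrome that marks club cells in the lung, was at 11.69 and from 11.42 to 11.72, which is within the range of the arrays without high Scgb1a1. Of 16 genes of ciliated cells, 4 were highest on NAC replicate 3, 0 by more than 0.5, with a median of -0.00. Their regulator Foxj1 was at 5.58 and from 5.43 to 5.89.

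Genes of lung endothelium and stroma had a median difference of 0.27 over 15 measured genes of 16. In 10 of the 15 NAC replicate 3 was highest, and in 2 by more than 0.5, Car4, a carbonic anhydrase of capillaries, at 6.47 and from 5.62 to 5.76, and the cardiopulmonary factor Tbx5, at 5.86 and from 5.22 to 5.36. Alveolar macrophage genes, 13 measured of 15, had a median of 0.11. Of these, 6 were highest on NAC replicate 3, 0 by more than 0.5, and the macrophage receptor Marco was at 6.32 and from 6.07 to 6.40.

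**Figure D3:**
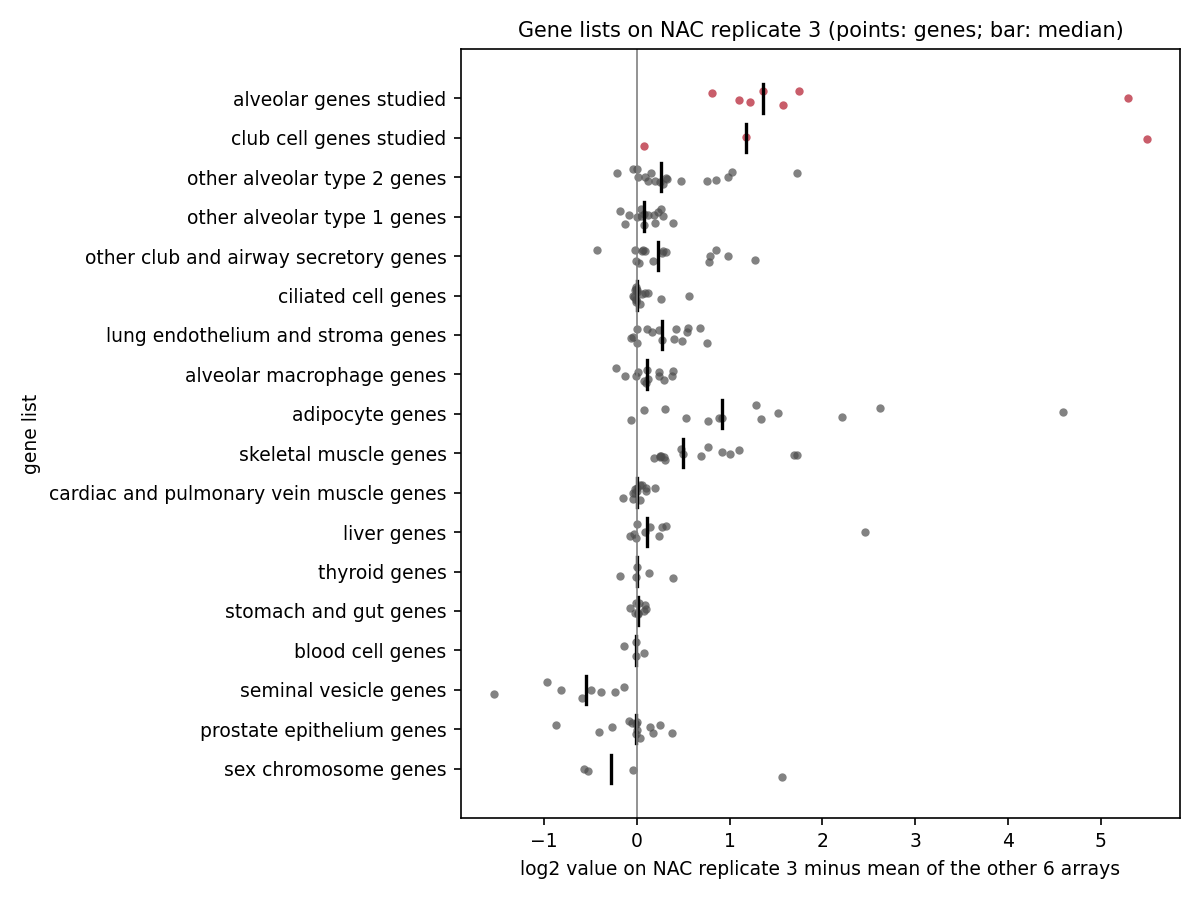
Difference between the log2 value on NAC replicate 3 and the mean of the other 6 arrays (x axis) for each measured gene of 18 lists (y axis), with a bar at each list's median. The medians are 1.36 for the alveolar and 1.17 for the club cell genes studied, 0.92 for adipocyte and 0.50 for skeletal muscle genes, and between -0.54 and 0.27 for the other lists.

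Transcripts of other tissues moved with the lung genes on the same array. Of 13 measured adipocyte genes of 15, 12 were highest on NAC replicate 3 and 9 by more than 0.5. Their mean level was 7.72 on that array, 6.31 to 6.56 on NAC replicates 1, 2 and 4, and 6.29 to 6.47 with vehicle. The carbonic anhydrase Car3, which fat and muscle share, was at 11.39 and from 6.08 to 7.78 on the other 6 arrays, and the fat hormone Retn at 9.13 and from 6.37 to 6.77. Of 15 skeletal muscle genes, 15 were highest on NAC replicate 3 and 6 by more than 0.5, and their mean was 7.35 on it, 6.63 to 6.70 on NAC replicates 1, 2 and 4, and 6.63 to 6.67 with vehicle. The fast myosin Myh4 was at 7.02 and from 5.25 to 5.36 on the other arrays. On the log2 scale of RMA no value marks an absent transcript, so whether a marker was expressed at all cannot be read from these levels, and the part of other tissues in the lung genes' values was not tested.

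Lists of further organs did not share the shift. Cardiac and pulmonary vein muscle genes (13 measured), thyroid genes (5 of 6), stomach and gut genes (9) and blood cell genes (4 of 9) had median differences of -0.00, -0.00, 0.01 and -0.01. Of 10 liver genes, Cyp2e1, which fat also expresses, was at 8.24 on NAC replicate 3, 6.87 on NAC replicate 1 and from 5.43 to 5.67 on the other 5 arrays, and the median was 0.11. Seminal vesicle genes had a median of -0.54 over 8 genes. Their mean level on NAC replicate 3, 9.40, was within the range of the other arrays, 8.68 to 10.64, and NAC replicate 3 was the highest array for 0 and the lowest for 1 of the 8. The 14 prostate genes had a median of -0.01.

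A gene of the X chromosome separated the same array. Xist, the noncoding RNA of X inactivation, which is transcribed in female cells, was at 6.74 on NAC replicate 3, at 4.88, 5.23 and 5.21 on NAC replicates 1, 2 and 4, and at 5.23, 5.23 and 5.30 with vehicle. Genes of the Y chromosome were measured on every array. Kdm5d was lowest on NAC replicate 3, at 7.86 against 8.32 to 8.50 on the other 6 arrays. Eif2s3y, at 9.12 against 9.33 to 9.95, was lowest there too, and Uty was within the range of the others, at 8.78 against 8.59 to 8.97. Why these genes moved with the lung genes was not tested.

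Of the 23 genes more than 1 above every other array on NAC replicate 3, 8 were the members named, 5 belonged to the adipocyte list, 3 to the skeletal muscle list and 1 each to the other type 2, liver and sex chromosome lists. The remaining 4, Myl1, Ttn, Neb and Dgat2, were in no list. Myl1, Ttn and Neb encode proteins of the sarcomere, and Dgat2 an enzyme of triglyceride synthesis. Apart from the members, the 10 genes with the largest excess over the next array were Car3, Retn, Myl1, the fatty acid carrier Fabp4, the calcium pump Atp2a1, Myh4, Chil1, Xist, the fat hormone Adipoq and Cyp2e1.

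The genes whose pattern over the 7 arrays was most like that of the alveolar members, by Pearson's r with their mean profile among 57 genes more than 0.5 above the other arrays, were Myh4 (0.999), Ttn (0.996), Neb (0.996), Atp2a1 (0.996) and Chil1 (0.994). For the club cell members they were Ttn (0.996), Neb (0.996), Myh4 (0.994), the actinin Actn3 (0.992) and the troponin Tnnt3 (0.991). These coefficients rest on 1 array. Over the other 6 arrays, r with the alveolar profile was 0.62 for Myh4, 0.73 for Ttn, 0.01 for Neb, 0.28 for Atp2a1 and 0.68 for Chil1. With the club cell profile it was 0.60 for Ttn, 0.44 for Neb, -0.25 for Myh4, 0.71 for Actn3 and 0.14 for Tnnt3. The members themselves were not alike over these 6 arrays, where 24 of their 45 pairs had a positive r and 21 a negative one, with a median of 0.04.

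The effect of NAC was examined on the arrays that had not been singled out, NAC replicates 1, 2 and 4 against vehicle replicates 1, 2 and 4. By limma, 0 of the 10 members had an adjusted p under 0.05 and 0 an unadjusted p under 0.05, against 0% and 3.36% of all genes (0 and 637 genes). NAC arrays all above the vehicle arrays were found for 0 members and 2.17% of genes, and all below for 0 members and 3.16%. With shares this low over all genes, counts of 0 among 10 show nothing particular to the lung genes. Of the members, 7 were higher and 3 lower with NAC. Their median was 0.04 on the log2 scale, against -0.00 over all genes.

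Scgb1a1 had the largest of these fold changes, at 3.85 ± 0.19 with NAC and 3.72 ± 0.17 with vehicle (SD, n = 3 each), a log2 fold change of 0.13 with a 95% interval from -0.18 to 0.45 (limma adjusted p = 0.854). Scgb3a1, at 6.53 ± 0.10 with NAC and 6.44 ± 0.14 with vehicle (SD, n = 3 each), had 0.10, with an interval from -0.13 to 0.32. For Sftpb it was 0.07 (interval from -0.04 to 0.18), and vehicle replicate 4, at 6.38, was the lowest array. Sftpc was at 5.21 ± 0.08 with NAC and 5.22 ± 0.06 with vehicle (SD, n = 3 each), a log2 fold change of -0.00 with an interval from -0.14 to 0.13 (limma adjusted p = 0.999). The other members had log2 fold changes from -0.03 (Lamp3) to 0.06 (Sftpd), and for each member the interval held 0.

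**Figure D4:**
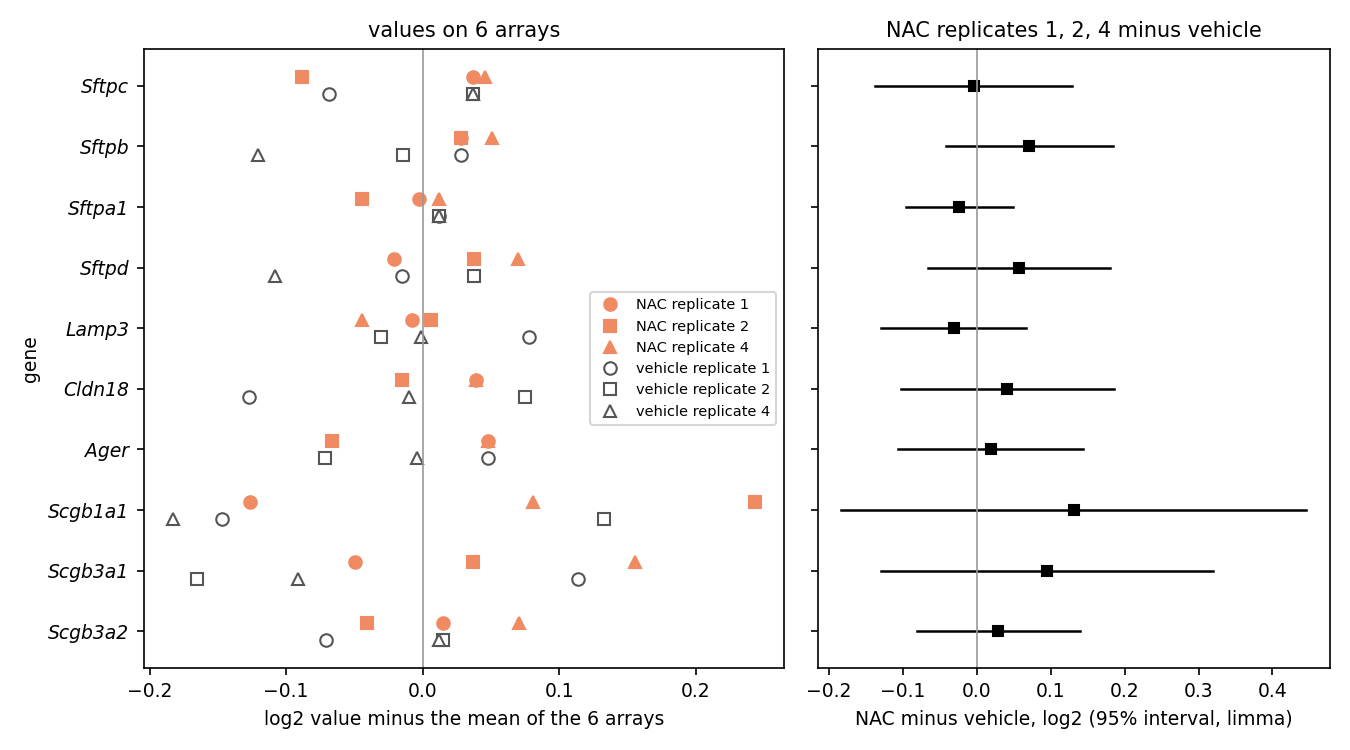
Left, log2 value of each gene (y axis) minus its mean over the 6 arrays without NAC replicate 3 (x axis), with NAC arrays filled and vehicle arrays open; symbols at equal values cover each other. Right, log2 fold change of NAC replicates 1, 2 and 4 over vehicle with its 95% interval from limma (x axis), which holds 0 for each of the 10 genes.

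On these 6 arrays the members varied little, apart from Scgb1a1 and Scgb3a1. The range within a gene was between 0.06 (Sftpa1) and 0.43 (Scgb1a1), and 0.32 for Scgb3a1. The median was 0.16, against 0.23 over all genes. NAC replicate 4 was the highest of the 6 for Sftpb, Sftpc, Sftpd, Scgb3a1 and Scgb3a2. Vehicle replicate 4 was the lowest for Sftpb, Sftpd and Scgb1a1. No array was highest or lowest for all members.

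With all 7 arrays in the comparison, the members' log2 fold changes of NAC over vehicle include the array by which the genes were chosen and are given as a description. Scgb1a1 averaged 5.21 ± 2.72 with NAC (SD, n = 4) and 3.72 ± 0.17 with vehicle (SD, n = 3), 1.49 higher on the log2 scale, with a standard error of 1.38. Sftpc averaged 6.54 ± 2.65 with NAC (SD, n = 4) and 5.22 ± 0.06 with vehicle (SD, n = 3), 1.32 higher, with a standard error of 1.34. The other members had values from 0.05 (Scgb3a2) to 0.50 (Sftpb), with a median over the 10 of 0.37. In this fit limma called 0% of all genes.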

How the data were processed

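The authors deposited log2 values per probe set. Their methods name Affy, with RMA background correction, quantile normalization between arrays and median polish over perfect-match probes. 1 further vehicle array did not pass their quality control. Arrays were assigned to groups by their titles, and 0 columns lacked a sample.

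Of 20696 probe sets, 18950 name 1 gene, 678 several and 1068 none in the platform annotation. Symbols were updated through Entrez identifiers (18910 genes found in the GRCm38.p6 table), and the probe set with the highest mean represented each of the 18938 genes. Summarized values hide how far a signal exceeds background, and precision is set by the few arrays, 1 mouse each.

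NAC and vehicle were compared on the log2 values by moderated statistics without covariates (limma 3.58.1, R 4.3.3). Tests were two-sided at a Benjamini-Hochberg adjusted p under 0.05 over all genes. The fits were made with all arrays and without NAC replicate 3. The same code was tested on simulated data. NAC replicate 3 was compared with the other 6 arrays as a description, without a test. The members and lists were chosen with earlier results of these data known, and the lists were written from textbook knowledge.

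Named were the members, the 10 other genes with the largest excess on NAC replicate 3, up to 5 most like each group, up to 4 leading genes per list and all measured sex chromosome genes. Immunoglobulin segments, predicted genes, Riken clones and receptors of the olfactory and vomeronasal families were skipped. Other genes were chosen after their values were seen. Alternatives were a variance trend with robust fit, array weights, subtracted array medians, a repeated quantile normalization, a filter on dim genes (mean under the 40th percentile), the replicate number as a block, a median over probe sets, other baselines and each array left out.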

Additional observations from a re-analysis of the deposited data

Results flagged for a closer look

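Within the 4 NAC arrays, the gap between the most extreme array and its neighbour was compared with the whole range (Dixon's ratio, at its 95% critical value for 4 arrays) in 41 sets of values, the genes and list means of the report. It passed in 20, and in each of these the extreme array was NAC replicate 3. Chance gives about 1 in 20 for genes not picked by their values. The members were chosen for high values on this array, and the single genes below other than Kdm5d for the largest excess on it. The lists, that of Kdm5d among them, were chosen with earlier results of these data known. The means of the members hold the same chosen values. The chance rate thus applies to none of these sets, and the ratios only describe the gap and test nothing. Of the members, 9 passed: Sftpb with a ratio of 0.987, Sftpc with 0.975, Sftpa1 with 0.965, Cldn18 with 0.961, Lamp3 with 0.959, Scgb1a1 with 0.934, Sftpd with 0.919, Ager with 0.870 and Scgb3a1 with 0.832. Scgb3a2 did not.

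Outside the members, the array was the highest for Myh4 (0.940), Atp2a1 (0.911), Chil1 (0.890), Adipoq (0.879) and Retn (0.854), and the lowest for Kdm5d (0.927). Of the list means, those of the alveolar members (0.973), the club cell members (0.932), liver genes (0.915), skeletal muscle genes (0.903) and other club and airway secretory genes (0.868) passed, all with NAC replicate 3 highest. The median difference of the liver genes was 0.11, and that of Cyp2e1 2.46.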

How the results depend on the processing

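The difference between NAC replicate 3 and the other arrays kept its sign for each member under each scaling and baseline tried. The members were chosen by this array and the array medians were alike. Apart from Scgb3a2, the sign could thus hardly change, and keeping it tests nothing. The difference ran from 5.43 to 5.53 for Scgb1a1, from 5.26 to 5.32 for Sftpc and from 0.05 to 0.08 for Scgb3a2. The median of the alveolar members was 1.57 when dim genes were left out. The filter took the mean over all 7 arrays, NAC replicate 3 among them, and its 40th percentile was 6.59. Of the alveolar members 3 of the 7 reached it (Sftpa1, Sftpb and Ager), and of the club cell members 1 of the 3 (Scgb3a1). Sftpb and Scgb3a1 averaged 6.50 and 6.48 on the other 6 arrays, so they passed only through NAC replicate 3. The value of 1.57 thus depends on the array that was singled out.

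Without NAC replicate 3, 0 of 124 alternative values of the members passed limma's threshold, with adjusted p from 0.710 to 1. Leaving out 1 further array moved the log2 fold change across 0 for Sftpc (from -0.0391 to 0.0393), Lamp3 (from -0.0539 to 0.0004), Cldn18 (from -0.0116 to 0.0896) and Ager (from -0.0123 to 0.0569), and Scgb3a2 had -0.0053 after quantile normalization again. Over all 7 arrays limma called 0 genes (357 higher and 479 lower at an unadjusted p under 0.05), and from 0 to 1 with 1 array left out, the 1 gene being Crip1 without NAC replicate 4. The titles number the replicates without saying whether equal numbers are paired. Deviations from the group means correlated with r of 0.27, 0.23 and -0.03 between same-numbered arrays and from -0.36 to 0.14 between others. NAC replicate 4 correlated best with vehicle replicate 2 (0.14). With so few arrays these values cannot settle whether the numbers pair the mice. With the replicate number as a block, 0 genes were called (464 higher and 492 lower at an unadjusted p under 0.05). NAC replicate 3 has no vehicle array of its number, so it does not inform this fit. The counts were the same with and without it.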

Other observations

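The comparisons did not use probe sets without a single gene name. Of these 1746, 14.3% were highest on NAC replicate 3 and 4 were more than 1 above every other array, by up to 1.86. In the opposite direction, 0 of the 18938 genes were lower on NAC replicate 3 by more than 1 than on each other array, and 5 by more than 0.5.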
